A study of Triticum aestivum with 3 samples.

Results

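VRT2 is an SVP-type MADS-box gene of bread wheat, present as 3 homoeologs, the related copies that a hexaploid carries on matching chromosomes of its A, B and D subgenomes. The members were taken from a list of identifiers: TraesCS7A02G175200 on chromosome 7A (VRT2-7A), TraesCS7B02G080300 on chromosome 7B (VRT2-7B) and TraesCS7D02G176700 on chromosome 7D (VRT2-7D). These are 3 of the 165276 genes in the quantification tables, and they hold 5 annotated transcripts. All 3 were found in every library. Their genome coordinates and sequences were not used here, and the chromosome is read from the identifier.

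MADS-box proteins of plants are transcription factors that bind DNA through a conserved N-terminal domain and act as dimers or larger complexes with one another. SVP-type members are named after Short Vegetative Phase of Arabidopsis, a protein that delays flowering by repressing genes that promote it. In wheat, VRT2 stands for Vegetative to Reproductive Transition 2, and misexpression of its A-genome copy is known to cause the long glumes of Polish wheat. Homoeologs of a wheat gene encode closely related proteins, and the subgenomes can contribute unequally to the transcript pool of the gene.

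The RNA-seq data come from shoots of wild-type seedlings of Chinese Spring, the reference cultivar, with 180 mg of shoots per extraction. Sown seeds were briefly kept cold in the dark, and the seedlings were then raised on agar at 18 °C under long days. The age is given as 12 days in part of the labels and as 14 days in another. There were 3 biological replicates of this 1 condition, with no treatment, mutant or second tissue, so no groups of samples were compared. The libraries were made from poly(A) RNA with a directional kit. Whole shoots mix leaf, sheath and shoot apex, and in such bulk RNA more cells of a type and more RNA per cell cannot be told apart. Shoot markers were not analysed, because no source used here pairs the identifiers in the tables with gene names.

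Replicate 3 stood apart from replicates 1 and 2. The most abundant transcript took 5.81% and 7.75% of all TPM in replicates 1 and 2 and 9.59% in replicate 3, and the 10 most abundant took 19.6%, 19.2% and 26.5%. TPM divides estimated counts by transcript length and gives each library the same total, so the level of one gene depends on the others. Among 49918 genes with a mean of at least 1 TPM and above 0 in each library, the median log2 ratio of replicate 3 to the mean of replicates 1 and 2 was -0.68. Values of the homoeologs that rest on replicate 3 are therefore given by library or with and without it. The changes of replicate 3 are read against that shift.

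All 3 VRT2 homoeologs were transcribed in the shoots, at a median above 0 TPM, a rule met by 61.3% of all genes. VRT2-7D was the most abundant copy in every library. VRT2-7A and VRT2-7B were lower, and their order was not the same in all libraries. Summed over the homoeologs, VRT2 had 11.9 TPM in replicate 1, 11.9 TPM in replicate 2 and 20.8 TPM in replicate 3. The sum was nearly equal in the first pair of libraries and higher in replicate 3.

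VRT2-7D, the D-genome copy, had 8.71 TPM in replicate 1, 8.44 TPM in replicate 2 and 10.1 TPM in replicate 3, with a mean of 9.10 ± 0.907 TPM (SD, n = 3). These values rest on 737, 680 and 807 estimated counts. The coefficient of variation was 9.97%, against a median of 28.6% over the 49918 genes. VRT2-7D thus varied less between libraries in deposited TPM than most genes of at least 1 TPM. After the libraries were rescaled by the median ratio over genes, its coefficient of variation was 37.6%, above the median of 15.8%, so this ordering depends on the scaling.

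VRT2-7A, the A-genome copy, had 2.56 TPM in replicate 1, 2.48 TPM in replicate 2 and 4.93 TPM in replicate 3, with a mean of 3.32 ± 1.39 TPM (SD, n = 3). Behind these levels stood 263, 224 and 472 estimated counts. Replicates 1 and 2 had overlapping 95% counting intervals (2.26 to 2.88 and 2.16 to 2.82 TPM, exact Poisson), and that of replicate 3 lay above both (4.49 to 5.39 TPM). Such intervals cover counting error only, not the variation between plants or the division of shared reads. Without replicate 3 the mean was 2.52 TPM.

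VRT2-7B, the B-genome copy, had 0.628 TPM in replicate 1, 1.01 TPM in replicate 2 and 5.78 TPM in replicate 3, with a mean of 2.47 ± 2.87 TPM (SD, n = 3). The estimated counts were 51.8, 78.8 and 447. A single library thus set the mean, which was 0.817 TPM without replicate 3, and the SD over the libraries exceeded the mean. Replicate 3 was 9.20 times replicate 1 and 5.74 times replicate 2. Its counting interval of 5.25 to 6.33 TPM was far from those of replicate 1 (0.471 to 0.826 TPM) and replicate 2 (0.799 to 1.26 TPM).

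**Figure D1:**
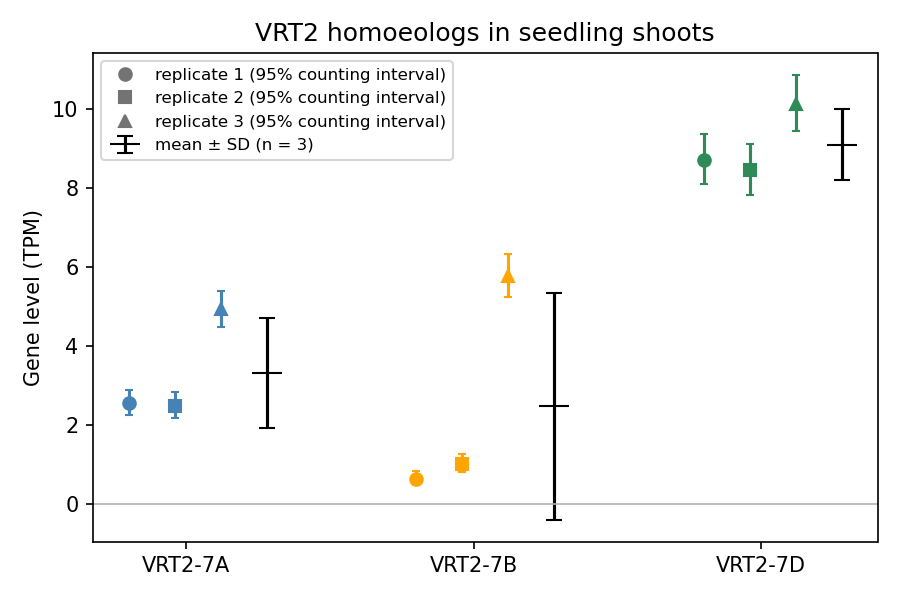
Level of each VRT2 homoeolog in TPM (vertical axis) in the 3 shoot libraries, with 95% Poisson intervals on the points and the mean ± SD (n = 3) as black bars. VRT2-7D sits between 8.44 and 10.1 TPM in every library, and VRT2-7B is at 0.628 and 1.01 TPM in replicates 1 and 2 but at 5.78 TPM in replicate 3. The lower SD bar of VRT2-7B passes below 0 because of that library.

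Ranked among all 165276 genes, VRT2-7D lay at percentile 92.7 ± 2.10, VRT2-7A at 82.5 ± 6.64 and VRT2-7B at 75.0 ± 14.4 (SD, n = 3). Library by library, the percentile of VRT2-7B was 65.0, 68.6 and 91.5, while that of VRT2-7D was 91.9, 91.1 and 95.1. VRT2-7A was at 79.3, 78.1 and 90.2. In replicate 3 the A and B copies were therefore close to the rank that the D copy held in the other libraries. Within its own chromosome each homoeolog ranked much as it did among all genes. In replicates 1, 2 and 3 the percentiles were 81.8, 80.9 and 91.7 for VRT2-7A on 7A. They were 66.4, 69.7 and 91.8 for VRT2-7B on 7B, and 93.1, 92.4 and 95.6 for VRT2-7D on 7D.

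The homoeologs were then compared within each library, where depth and scaling are shared. The log2 ratio of VRT2-7A to VRT2-7D was -1.77 in replicate 1, -1.77 in replicate 2 and -1.04 in replicate 3, a mean of -1.53 ± 0.42 (SD, n = 3). VRT2-7A was thus lower than VRT2-7D in 3 of 3 libraries, by more than the spread between them. The log2 ratio of VRT2-7B to VRT2-7D was -3.79, -3.07 and -0.81 in replicates 1, 2 and 3, a mean of -2.56 ± 1.56 (SD, n = 3). VRT2-7B was also lower than VRT2-7D in 3 of 3 libraries, with a deficit that differed widely between them.

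VRT2-7A and VRT2-7B, neighbours in the order of levels, did not differ beyond their spread. Their log2 ratio was 2.03 in replicate 1, 1.30 in replicate 2 and -0.23 in replicate 3, a mean of 1.03 ± 1.15 (SD, n = 3). VRT2-7A was higher in replicates 1 and 2, and VRT2-7B was higher in replicate 3. Leaving out replicate 3 gave a mean of 1.66. The exact two-sided sign-flip permutation test gave p = 0.25 for 7A against 7D, p = 0.25 for 7B against 7D and p = 0.5 for 7A against 7B, and 0.375, 0.375 and 0.5 after Benjamini-Hochberg adjustment over the 3 pairs. With 3 libraries the smallest p this test allows is 0.25, so it could place none of the pairs under 0.05.

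The share of the summed TPM showed the same values as a balance between subgenomes. VRT2-7A kept a nearly constant share, with 21.5%, 20.8% and 23.6% in replicates 1, 2 and 3 (mean 22.0% ± 1.49, SD, n = 3). VRT2-7D had 73.2%, 70.8% and 48.6% (mean 64.2% ± 13.5), and VRT2-7B had 5.28%, 8.44% and 27.7% (mean 13.8% ± 12.2). These shares add up to the whole, so that of VRT2-7D was lowest in replicate 3 although its level was highest there, and VRT2-7A kept its share while its level was higher. Without replicate 3 the mean shares were 21.1% for VRT2-7A, 6.86% for VRT2-7B and 72.0% for VRT2-7D.

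**Figure D2:**
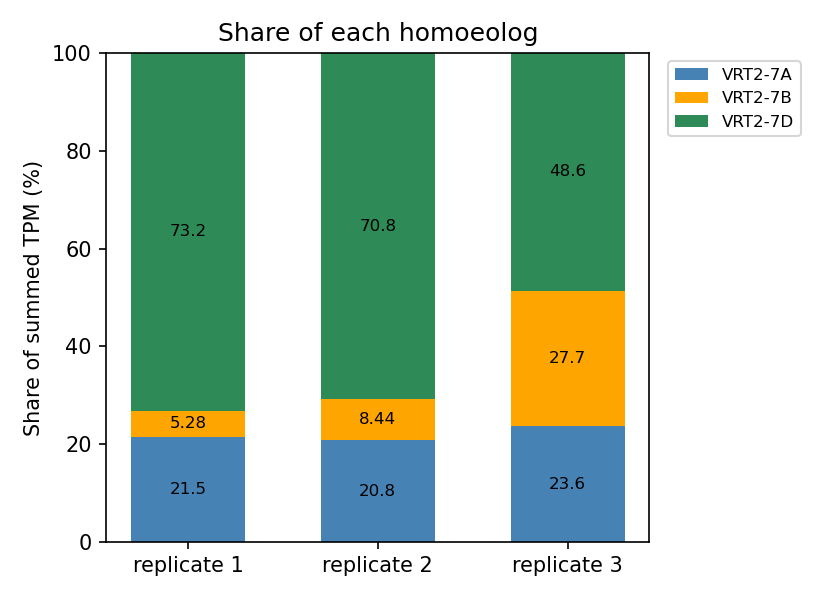
Share of each homoeolog in the summed TPM of VRT2 (vertical axis, percent) in each shoot library. The VRT2-7A segment stays between 20.8% and 23.6%, and VRT2-7B takes 27.7% in replicate 3 against 5.28% and 8.44% in replicates 1 and 2.

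Expression patterns of wheat homoeologs are often named after the nearest of 7 ideal patterns: balanced (33.3% each), 1 dominant copy or 1 suppressed copy. By the distance between shares, a measure chosen after the values were seen, replicate 1 was nearest to D dominant (0.348, with B suppressed at 0.371). Replicate 2 lay as near to B suppressed as to D dominant (0.368 for each). Replicate 3 was nearest to balanced (0.190, with A suppressed next at 0.325). With shares of estimated counts, not corrected for length, replicates 1 and 2 were both nearest to B suppressed (0.324 and 0.342, with D dominant at 0.393 and 0.392) and replicate 3 again to balanced (0.165). The name given to VRT2 would thus depend on the library and, for replicate 1, on the measure.

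VRT2-7B was the member that differed most between libraries, and all 3 members were highest in replicate 3, as were 10.2% of the 49918 genes of at least 1 TPM. The log2 ratio of replicate 3 to the mean of replicates 1 and 2 was 2.82 for VRT2-7B, 0.97 for VRT2-7A and 0.24 for VRT2-7D, beside the median of -0.68 over those genes. Of these genes, 333 (0.667%) had a ratio above that of VRT2-7B, 1500 (3.00%) above that of VRT2-7A and 4131 (8.28%) above that of VRT2-7D. In deposited TPM only VRT2-7B passed a 2-fold difference, which 2.90% of the genes did in that direction. These are descriptions of 1 library against 2 others, with no test. The mean that defines the 49918 genes includes replicate 3. VRT2-7B, at 0.817 TPM without that library, entered the set only through it, so its rank there is partly set by this entry.

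Rescaling the libraries by the median ratio over genes raised the log2 ratios to 3.46 for VRT2-7B, 1.60 for VRT2-7A and 0.87 for VRT2-7D. All 3 members were again highest in replicate 3, now beside 38.4% of the genes, and 2 of the 3 members passed 2-fold, beside 6.69% of the genes. Such rescaling shifts all genes by nearly the same amount, so ranks among genes are kept by construction. In deposited TPM, the summed VRT2 level of replicate 3 exceeded the mean of the others by 8.92 TPM. VRT2-7B supplied 4.96 TPM of this (55.6%), VRT2-7A supplied 2.41 TPM (27.0%) and VRT2-7D supplied 1.55 TPM (17.4%). In rescaled TPM the excess was 17.6 TPM, of which VRT2-7B supplied 40.0%, VRT2-7A 25.1% and VRT2-7D 34.9%, so the order of VRT2-7A and VRT2-7D turned with the scaling, an alternative chosen after seeing the data. The part that the other differences of replicate 3 have in this was not tested.

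**Figure D3:**
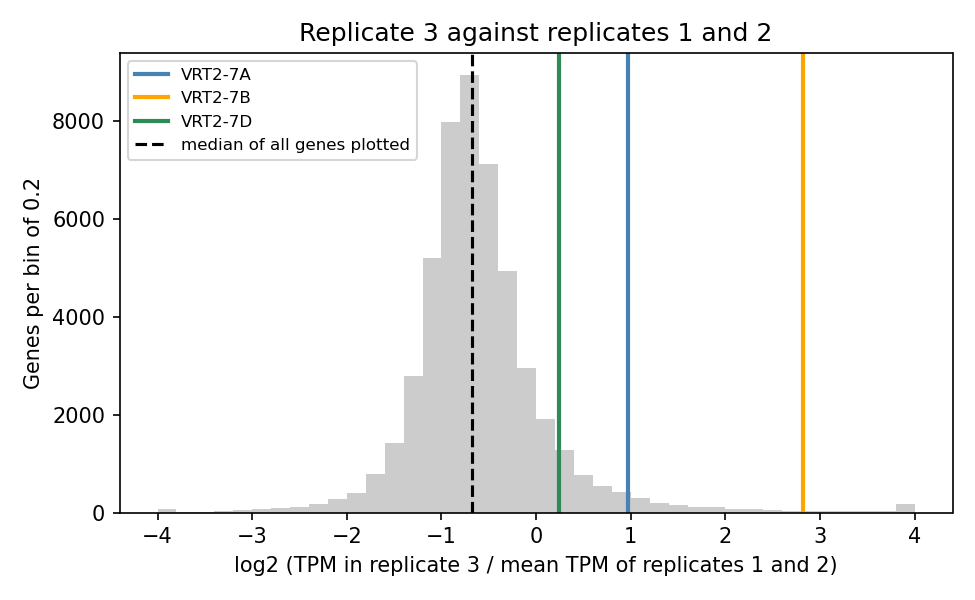
Histogram over 49918 genes of the log2 ratio of TPM in replicate 3 to the mean of replicates 1 and 2 (horizontal axis; values past the ends are drawn in the end bins), with the number of genes on the vertical axis. The median gene is at -0.68, and VRT2-7D (0.24), VRT2-7A (0.97) and VRT2-7B (2.82) lie to its right.

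The tables annotate 2 transcripts for VRT2-7A, 2 for VRT2-7B and 1 for VRT2-7D, the last of 1240 bases. In both genes with a choice, transcript 1 (suffix 1 of the identifier) carried most of the level. For VRT2-7A, transcript 1 (1472 bases) had 2.56, 1.94 and 4.78 TPM in replicates 1, 2 and 3. The shorter transcript 2 (1008 bases) had 0, 0.542 and 0.142 TPM, or 0%, 21.9% and 2.87% of the gene. A chosen floor of 3 estimated counts would equal 0.0453 TPM or 1.74% of the gene in replicate 1. It leaves out the uncertainty in dividing shared reads, so it is not an upper limit on this transcript. The estimated level of the shorter VRT2-7A transcript did not follow the level of the gene, which was highest in replicate 3.

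For VRT2-7B, transcript 1 (1214 bases) had 0.628, 0.886 and 5.06 TPM in replicates 1, 2 and 3. Transcript 2, only 34 bases shorter (1180 bases), had 0, 0.120 and 0.719 TPM. This was 0%, 12.0% and 12.5% of the gene, where the same floor would equal 5.64% in replicate 1. Both transcripts were highest in replicate 3, and their proportions were alike in replicates 2 and 3. Over the libraries transcript 1 averaged 91.8% ± 11.9 of VRT2-7A and 91.9% ± 7.05 of VRT2-7B (SD, n = 3). Transcript 2 rests on 34.2 and 8.85 estimated counts for VRT2-7A in replicates 2 and 3, and on 9.15 and 54.1 for VRT2-7B. Since transcripts of 1 gene share most of their reads, and homoeologs share some, the division between them is an estimate of the quantification and is uncertain.

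**Figure D4:**
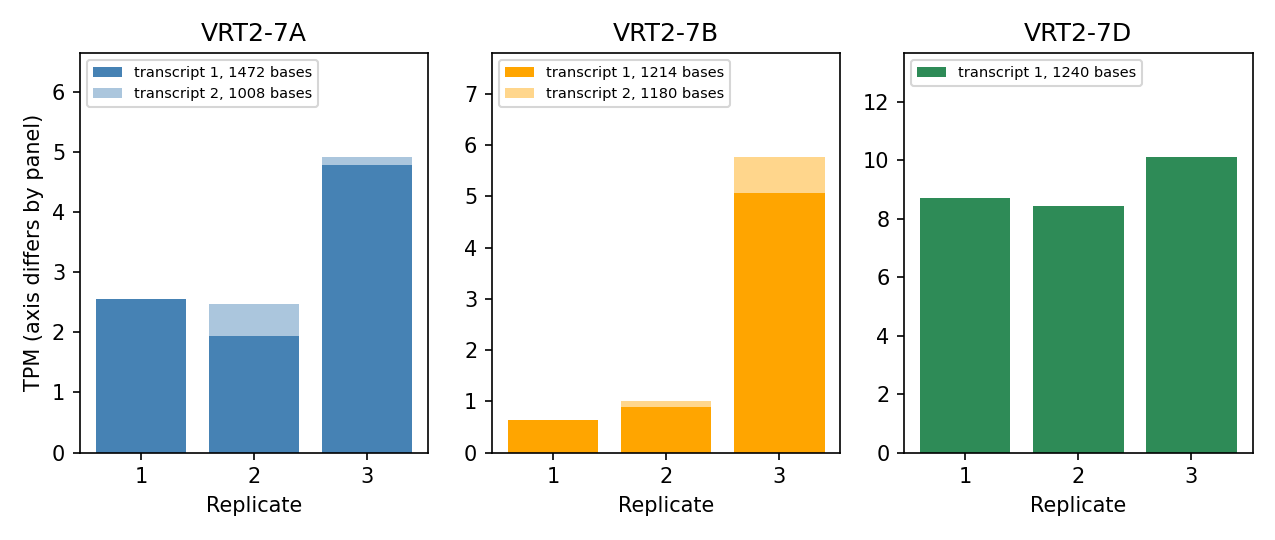
Level in TPM (vertical axis, scaled separately in each panel) of each annotated transcript of VRT2-7A, VRT2-7B and VRT2-7D, stacked by gene, in replicates 1 to 3. Transcript 1 makes up most of each bar, and transcript 2 of VRT2-7A reaches 21.9% of the gene in replicate 2 and 2.87% in replicate 3.

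The genes on either side were examined to see whether the level of VRT2 in replicate 3 was shared along the chromosome. Identifiers were taken in order, as they follow position, and the 10 high-confidence genes on each side of each homoeolog gave 60 neighbours, of which 44 had a median above 0 TPM and 23 were among the 49918 genes. Of these 23, 4 were highest in replicate 3 in deposited TPM, beside 10.2% of the 49918 genes, a small count that was not tested. After rescaling, 38.4% of the 49918 genes were highest there. The neighbours were not counted on that scale, so the count of 4 holds for deposited TPM only. In deposited TPM the median log2 ratio of replicate 3 to the others among these neighbours was -0.76 around VRT2-7A, -0.34 around VRT2-7B and -0.48 around VRT2-7D. The highest neighbour reached 1.08 around VRT2-7A, 1.59 around VRT2-7B and 1.14 around VRT2-7D, so VRT2-7B lay above each of its measured neighbours and the other members did not. The highest neighbour of VRT2-7B had 0.252, 1.03 and 1.93 TPM in replicates 1, 2 and 3. Like VRT2-7B, it met the mean of at least 1 TPM only with replicate 3.

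Next to VRT2-7B, TraesCS7B02G080200 had 1.87, 2.08 and 1.13 TPM in replicates 1, 2 and 3, TraesCS7B02G080400 had 0.366, 0.764 and 0.512 TPM, TraesCS7B02G080500 had 0.400, 0.571 and 0.253 TPM, and TraesCS7B02G080100 was at 0 in each library. In deposited TPM none of these 4 was highest in replicate 3, as was true of most genes, since 10.2% of the 49918 were highest there. The gene at 0 could not be highest, and TraesCS7B02G080400 and TraesCS7B02G080500 were below the mean of 1 TPM of that set. Next to VRT2-7A, TraesCS7A02G175100 (3.36, 3.07 and 1.72 TPM) and TraesCS7A02G175300 (4.92, 5.13 and 3.07 TPM) were lowest in replicate 3, and TraesCS7A02G175000 was at 0. TraesCS7A02G175400, the second gene after VRT2-7A, was like it in being highest in replicate 3, with 2.97, 2.08 and 5.35 TPM. Next to VRT2-7D, TraesCS7D02G176600 (3.80, 3.70 and 1.60 TPM) and TraesCS7D02G176900 (7.39, 8.62 and 6.06 TPM) were lowest in replicate 3, and TraesCS7D02G176500 and TraesCS7D02G176800 were at 0. All these orders of libraries are in deposited TPM. Rescaling divides TPM by 1.12, 1.20 and 0.748 in replicates 1, 2 and 3. A gene slightly lower in replicate 3, such as TraesCS7D02G176900 or TraesCS7B02G080400, can then become highest there.

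**Figure D5:**
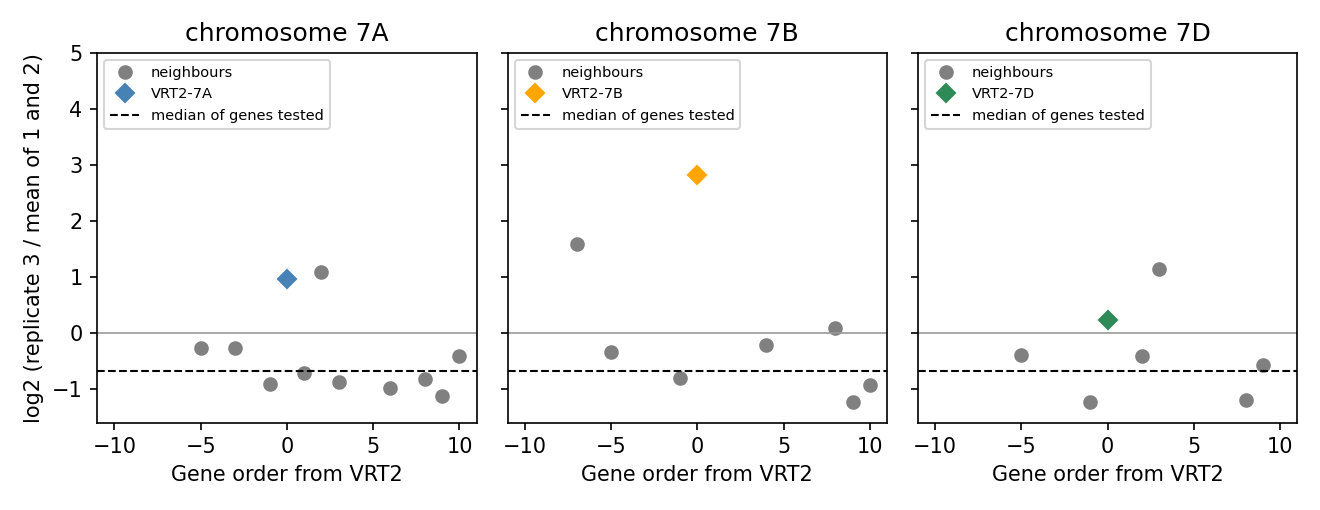
Log2 ratio of replicate 3 to the mean of replicates 1 and 2 (vertical axis) for VRT2 (diamonds) and those of its 10 neighbours on each side with a mean of at least 1 TPM (points), by gene order (horizontal axis). VRT2-7B at 2.82 is above its measured neighbours, whose highest value is 1.59, and the dashed line is the median of all such genes (-0.68).

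Over whole chromosomes no such rise was seen in deposited TPM. The median log2 ratio of replicate 3 was -0.68 over 2418 genes of chromosome 7A, -0.69 over 2375 genes of 7B and -0.67 over 2404 genes of 7D. On these chromosomes 9.76%, 9.05% and 10.3% of the genes were highest in replicate 3 in deposited TPM, and no rescaled count was taken. The ratio was above that of VRT2-7B for 17 of the genes on 7B, above that of VRT2-7A for 67 on 7A and above that of VRT2-7D for 201 on 7D. VRT2-7B is among these genes of 7B only through replicate 3, so its place there is partly set by this entry.

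The genes with the most similar values were sought among 105200 high-confidence genes by the distance of log2(TPM + 0.1) over the 3 libraries. The nearest to VRT2-7B was TraesCS5A02G004600 (distance 0.141), with 0.587, 0.925 and 5.70 TPM in replicates 1, 2 and 3. The nearest to VRT2-7A was TraesCS1D02G166600 (0.117), with 2.44, 2.66 and 4.90 TPM, and the nearest to VRT2-7D was TraesCS2A02G508200 (0.0653), with 9.00, 8.54 and 9.82 TPM. Within a distance of 0.5 lay 12 genes for VRT2-7B, 157 for VRT2-7A and 621 for VRT2-7D. Fewer genes thus matched the values of VRT2-7B than those of VRT2-7A or VRT2-7D, over 3 libraries of a single condition. The match uses the same 3 values, that of replicate 3 included. No such count was taken for other genes of like level.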

How the data were processed

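Poly(A) RNA of 3 shoot libraries was sequenced by the authors, who trimmed the reads with Trimmomatic 0.36 per the labels and quantified transcripts with kallisto (version not given in the sources used here) on a gene set built from the IWGSC v1.1 annotation. Per transcript, the authors deposited lengths, raw estimated counts and TPM (length-scaled, with an equal total per library). Estimated counts totalled 75465873, 76337649 and 67470696 in replicates 1, 2 and 3. Here TPM and estimated counts were summed over the transcripts of a gene.

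Homoeologs were compared by the log2 TPM ratio within a library with an exact sign-flip permutation test. Intervals are exact 95% Poisson intervals on rounded estimated counts. Levels, shares, percentiles, transcripts and library ratios carry no test, because the samples form 1 group. Library ratios used genes above 0 in each library with a mean of at least 1 TPM, replicate 3 included. Rescaling divided TPM by the median ratio to the geometric mean of the libraries. The members and lists were chosen with earlier results of these data known. Genes named are the homoeologs, the 2 high-confidence genes on each side and the nearest gene by TPM. Alternatives were other pseudocounts, lengths, scalings, filters and single transcripts, and each replicate left out. Rescaled shares of the rise in replicate 3 and patterns from estimated counts were added after seeing the data. The reference table at hand matched 0 identifiers, so other MADS-box genes and shoot markers were not analysed here. The work used scipy 1.17.1, pandas 2.3.3 and numpy 2.4.6 under Python 3.11.15, with matplotlib 3.10.9 for plots.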

Additional observations from a re-analysis of the deposited data

How the results depend on the processing

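The means over libraries of the 3 log2 ratios between homoeologs kept their sign in every alternative. Within libraries the ratio of 7A over 7B did not, with 2.03, 1.30 and -0.23 in replicates 1, 2 and 3. Leaving out a replicate gave means of 0.54 to 1.66 for 7A over 7B, -1.77 to -1.40 for 7A over 7D and -3.43 to -1.94 for 7B over 7D. Leaving out a replicate gave mean levels of 2.52 to 3.74 TPM for VRT2-7A, 0.817 to 3.39 TPM for VRT2-7B and 8.58 to 9.42 TPM for VRT2-7D. Without replicate 3, VRT2-7B was lowest.

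By construction, filters on low values lowered the percentiles. Among genes with a median above 0 TPM they were 71.5, 59.3 and 88.1 for VRT2-7A, VRT2-7B and VRT2-7D, among those of at least 1 TPM they were 42.5, 24.4 and 75.9, and VRT2-7D was at 90.4 among high-confidence genes. In estimated counts, which favour longer transcripts, VRT2-7A had 25.1% of the sum. With TPM scaled over high-confidence genes alone, VRT2-7D averaged 10.5 TPM. Rescaling by the median ratio gave log2 ratios of each replicate to the others of -0.92, -1.10 and 1.60 for VRT2-7A, -2.94, -2.30 and 3.46 for VRT2-7B, and -0.41, -0.59 and 0.87 for VRT2-7D, in replicates 1, 2 and 3, with the same signs as in deposited TPM. All 3 members passed each expression threshold tried, but VRT2-7B only just met a median of 1 TPM. Its median was 1.01 TPM, with 0.628 TPM in replicate 1. The share of all genes was taken only for a median above 0 TPM, where it was 61.3%. Homoeologs were paired within libraries throughout, and no replicate block between groups of samples could be fitted, since there is 1 group. The exact sign-flip test cannot go under 0.25 with 3 libraries, so staying above 0.05 says nothing of stability. Depth limited the minor transcripts, which rest on at most 54.1 estimated counts.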
